A study of Mus musculus with 15 samples.

Results

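Translation initiation factor genes were examined in fully grown oocytes of the mouse, held at the germinal vesicle (GV) stage before meiosis resumes. The group was defined by symbol, as protein-coding genes whose names start with Eif1 to Eif6, leaving out Eif4enif1, which encodes a transport partner of eIF4E. Of 65 matching symbols, 54 belonged to protein-coding genes and formed the group, and 11 belonged to pseudogenes or non-coding genes. The deposited tables list 53700 genes. Polyadenylated RNA was sequenced from libraries of 15 oocytes each. On the FVB/N background, 3 biological replicates were Padi6 heterozygotes (het) and 3 were Padi6 knockouts (KO). On the C57BL/6J background, 2 biological replicates were Tle6 heterozygotes and 4 were Tle6 knockouts, in 9 libraries, since both het replicates and KO replicate 4 had technical libraries A and B. Every control in these comparisons carried a mutant allele of the targeted gene in heterozygous form. Nothing in the labels says whether replicates came from separate animals, so p-values measure only the spread between these samples.

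Initiation is the step at which a ribosome is brought to an mRNA and finds its start codon. The eIF4 factors bind the cap and unwind the leader, eIF2 carries the initiator tRNA, eIF3 and eIF1 hold the small subunit open for scanning, and eIF5 and eIF5B release the factors and join the large subunit. Growing oocytes make and store large amounts of mRNA, transcription falls silent in the fully grown oocyte, and protein synthesis then depends on which stored mRNAs are recruited to ribosomes. The cytoplasmic lattices of the oocyte need both PADI6, from the peptidylarginine deiminase family, and TLE6, which belongs to the subcortical maternal complex. The comparisons ask how initiation factor transcripts differ in oocytes that lack either protein.

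Libraries held between 30100177 and 74947533 reads counted in genes, so the spread between replicates, not counting, limited nearly all values. Padi6 was at 1620 to 1750 CPM (reads scaled to a common library size) in Padi6 het oocytes and at 18.2 to 25.1 CPM in Padi6 KO oocytes, and Tle6 was at 425 to 457 CPM in Tle6 het and 61.1 to 98.8 CPM in Tle6 KO oocytes. All 12 oocyte markers listed, among them Gdf9 and Zp3, were at 13.9 CPM or more in every replicate. The 19 granulosa and cumulus cell markers together reached 103 to 133 CPM, with ranges that overlapped between all 4 groups, and at most 9 of them reached 1 CPM in a group. The summed oocyte markers were at 25500 to 25800 CPM in Padi6 het and 26600 to 27300 CPM in Padi6 KO. They were at 22200 to 23900 CPM in Tle6 het and 20700 to 22100 CPM in Tle6 KO. Het and KO thus did not overlap in either line, with KO higher in the Padi6 line and lower in the Tle6 line. The technical libraries of Tle6 het replicate 2, A and B, differed from each other far more than the other pairs did. Their expression correlated at 0.901 across genes, against 0.998 for each of the other pairs, and 13 of the 51 initiation factor genes at 1 CPM or more differed at least 2-fold between them, against 0 in each other pair. Where leaving out library B changed a call or the order of groups in a comparison with Tle6 het oocytes, this is stated beside the result.

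Nearly every initiation factor gene was transcribed into the stored pool. Of the 54 genes, 51 had a mean of at least 1 CPM over the 4 groups, 28 reached 100 CPM and 8 reached 300 CPM. The members together held 7390 to 8080 CPM in Padi6 het, 7070 to 7980 in Padi6 KO, 8400 to 8930 in Tle6 het and 7810 to 9000 CPM in Tle6 KO replicates. Eif2ak2, at a mean of 0.891 CPM, was the lowest of the genes that were tested. The remaining members were Eif2s3y, the Y-linked copy of the eIF2 gamma gene, with 7 reads over all 12 replicates, and Eif4ebp3, a repressor of eIF4E, with 4 reads. Neither passed the filter on low counts, so 52 of the 54 members were tested in each comparison. In RNA from pooled oocytes, fewer cells with a transcript and less of it per cell cannot be told apart.

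Levels of different genes were compared per kilobase, as CPM divided by the length of the longest principal protein-coding transcript in GENCODE M21. Eif2b1, the alpha subunit of the eIF2B exchange factor that recharges eIF2 with GTP, stood at 453 CPM per kb, above 99.4% of protein-coding genes. Eif3k, a small peripheral eIF3 subunit, stood at 434 CPM per kb, or at 125 CPM per kb over the union of all its annotated exons, where it ranked 6. Eif1b and Eif1, which encode close forms of the start codon selection factor eIF1, stood at 361 and 220 CPM per kb. Eif4g2, which encodes an eIF4G relative without the eIF4E-binding part, ranked highest at 542 CPM per kb, but its principal transcript is annotated with only 742 bases, and over the union of its exons it was at 39.6 CPM per kb and ranked 19. Of the 52 members tested for differences, 22 were over 1.5 times lower on the union scale. The levels below therefore hold for the principal transcript, and some orders that turn on the union scale are named.

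**Figure D1:**
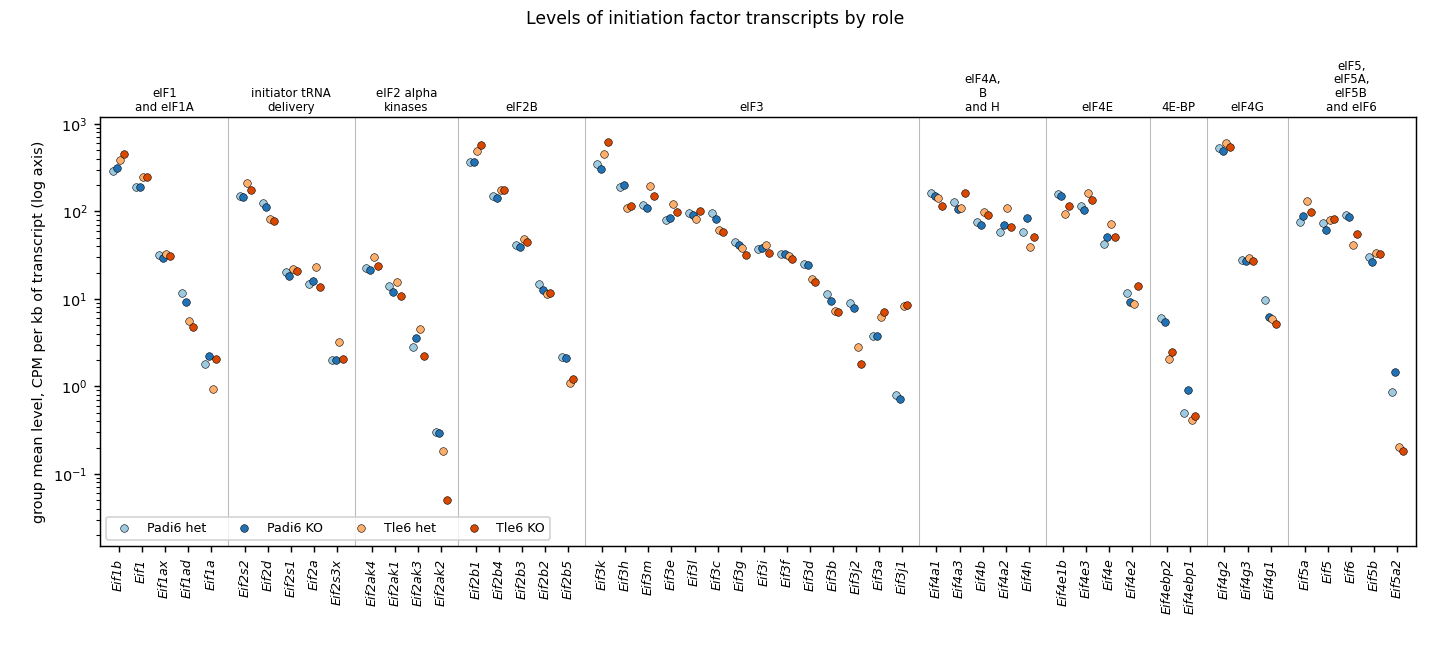
Group mean level of each initiation factor gene in CPM per kb of transcript (log axis), with genes ordered by role and by level, and the 4 groups as colours. Eif2s3y and Eif4ebp3, with 7 and 4 reads in all, are not drawn. Within most roles the genes span over a factor of 10, while the 4 group means of most genes lie close together.

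The genes of highest level per kb differed in how evenly their replicates lay. Eif2b1 was at 827, 651 and 768 CPM in Padi6 het, 825, 761 and 661 in Padi6 KO, 994 and 987 in Tle6 het and 1130, 1190, 1150 and 1150 CPM in Tle6 KO. Eif1b was at 289, 310 and 305 CPM in Padi6 het, 298, 327 and 337 in Padi6 KO, 372 and 427 in Tle6 het and 372, 537, 599 and 383 CPM in Tle6 KO. Eif2b1 was even within the Tle6 KO group and Eif1b was not. With libraries A and B pooled, both genes were higher in every replicate of the Tle6 line than in any of the Padi6 line. For Eif2b1, library A of Tle6 het replicate 2, at 794 CPM against 1140 CPM in library B, lay within the range of the Padi6 line. Eif1 was at 250, 237 and 261 CPM in Padi6 het, 264, 249 and 242 in Padi6 KO, 320 and 339 in Tle6 het and 271, 369, 385 and 296 CPM in Tle6 KO. Eif4g2 was at 425, 376 and 384 CPM in Padi6 het, 409, 355 and 323 in Padi6 KO, 347 and 549 in Tle6 het and 339, 466, 479 and 330 CPM in Tle6 KO. The groups of Eif4g2 overlapped throughout, whereas all replicates of Eif1 in the Tle6 line lay above those of the Padi6 line.

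The roles differed in how evenly their subunits were represented. Among the start codon selection factors, Eif1ax, the X-linked eIF1A gene, was at 31.3 CPM per kb, Eif1ad, named for an eIF1A-like domain, at 7.84 and Eif1a, the autosomal eIF1A gene, at 1.75. The 3 subunits of eIF2 were uneven, with Eif2s2 (beta) at 169 CPM per kb, Eif2s1 (alpha) at 20.3 and Eif2s3x (gamma) at 2.33, although 35.6% of the 31-base stretches of Eif2s3x transcripts also occur in other genes and reads with several alignments were not counted. Eif2d, which can place tRNA on the ribosome without eIF2, stood at 99.1 CPM per kb (28.9 over the union of exons) and Eif2a, with a related activity, at 16.9. The remaining eIF2B subunits ran from Eif2b4 at 161 through Eif2b3 at 43.6 and Eif2b2 at 12.7 down to Eif2b5, the catalytic epsilon subunit, at 1.65 CPM per kb. Over the union of exons Eif2b3 and Eif2b2 were level, at 10.4 and 10.8 CPM per kb.

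Of the kinases that phosphorylate eIF2 alpha under stress, Eif2ak4 (GCN2, which senses uncharged tRNA) was at 24.5 CPM per kb and Eif2ak1 (HRI, which senses heme) at 13.1. Eif2ak3 (PERK, which senses unfolded proteins in the endoplasmic reticulum) was at 3.28 and Eif2ak2 (PKR, which senses double-stranded RNA) at 0.207 CPM per kb. Below Eif3k, the eIF3 subunits Eif3h, Eif3m, Eif3e, Eif3l and Eif3c were between 74.6 and 153 CPM per kb, and Eif3g, Eif3i, Eif3f and Eif3d between 20.5 and 38.8. Over the union of exons Eif3e was no higher than Eif3g, both at 21.5 CPM per kb, and lay below Eif3f at 27.0. The core subunits Eif3b and Eif3a stood at 8.80 and 5.23 CPM per kb. The RNA helicase genes Eif4a1 and Eif4a2 were at 143 and 75.9, Eif4a3, the exon junction member of that family, at 126, and the helicase cofactors Eif4b and Eif4h at 84.2 and 58.4 CPM per kb. Over the union of exons Eif4a3 and Eif4b, at 89.3 and 72.6 CPM per kb, lay above Eif4a1 at 58.4. The scaffold genes Eif4g3 and Eif4g1 were at 27.8 and 6.78 CPM per kb. Eif5, the GTPase activator of eIF2, was at 74.0, Eif5b, which joins the subunits, at 30.8, Eif6, which keeps the large subunit free, at 69.0, and the hypusinated factors Eif5a and Eif5a2 at 98.5 and 0.681 CPM per kb.

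The cap-binding family included the oocyte-type gene Eif4e1b (ENSMUSG00000074895, chromosome 13), a cap-binding paralogue known mainly from germ cells and early embryos, at 130 CPM per kb. Eif4e3, a further paralogue, was at 129, the general cap-binding factor gene Eif4e (ENSMUSG00000028156, chromosome 3) at 53.9 and Eif4e2, which encodes the repressive cap-binding protein 4EHP, at 10.9 CPM per kb. Over the union of exons Eif4e1b was at 122 and Eif4e at 44.8 CPM per kb, in the same order, but Eif4e3, at 129, lay above Eif4e1b. The coding sequences of Eif4e and Eif4e1b in GENCODE M21 align over 648 bases, of which 62.8% are identical. The most alike 150-base stretches of the longest gap-free block, from coding base 193 of Eif4e and 277 of Eif4e1b, are shown to let the copies be compared, with the 43 bases that differ in capitals.
Eif4e: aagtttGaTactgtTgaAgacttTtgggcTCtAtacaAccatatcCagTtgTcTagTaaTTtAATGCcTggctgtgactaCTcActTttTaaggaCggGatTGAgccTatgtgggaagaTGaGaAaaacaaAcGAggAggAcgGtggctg
Eif4e1b: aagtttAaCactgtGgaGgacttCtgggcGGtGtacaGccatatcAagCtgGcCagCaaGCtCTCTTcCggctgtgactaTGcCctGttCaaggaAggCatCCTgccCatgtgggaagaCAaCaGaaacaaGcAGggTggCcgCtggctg

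Eif4e1b did not pass the threshold with loss of either gene. It was at 358, 303 and 349 CPM in Padi6 het and 356, 322 and 290 CPM in Padi6 KO oocytes. It was at 206 and 196 CPM in Tle6 het and 208, 288, 245 and 238 CPM in Tle6 KO oocytes. The Padi6 groups overlapped. The Tle6 KO replicates lay above the Tle6 het replicates, but library A of het replicate 2, at 295 CPM against 125 CPM in library B, lay above them all. With loss of PADI6 the log2 change was -0.04 ± 0.10 (SE, adjusted p = 0.861), and with loss of TLE6 0.32 ± 0.18 (adjusted p = 0.375), both from edgeR's quasi-likelihood test with Benjamini-Hochberg adjustment over all genes, which gives every adjusted p below unless another tool is named. Without library B the change in Tle6 KO oocytes was -0.03 (adjusted p = 0.976).

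Eif4e had log2 changes of opposite sign in the Padi6 and the Tle6 line and did not pass the threshold in either. It was at 203, 205 and 229 CPM in Padi6 het and 228, 254 and 281 CPM in Padi6 KO oocytes, groups that just overlap. It was at 383 and 331 CPM in Tle6 het and 282, 202, 221 and 302 CPM in Tle6 KO oocytes, all 4 below both het replicates, although library A of het replicate 2, at 285 CPM, lay within their range. Padi6 KO oocytes had a log2 change of 0.28 ± 0.11 (adjusted p = 0.212) and Tle6 KO oocytes one of -0.46 ± 0.21 (adjusted p = 0.278), and the difference between these changes was -0.79 ± 0.24 (adjusted p = 0.0800). Per unit of transcript length, Eif4e1b exceeded Eif4e by 3.46 to 4.14 times in Padi6 het, 2.42 to 3.65 times in Padi6 KO, 1.26 to 1.39 times in Tle6 het and 1.72 to 3.35 times in Tle6 KO replicates. The Tle6 het replicates had the lowest ratios, but in het replicate 2 the ratio was 2.43 in library A and 0.799 in library B, so without library B it lay within the range of the KO groups.

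**Figure D2:**
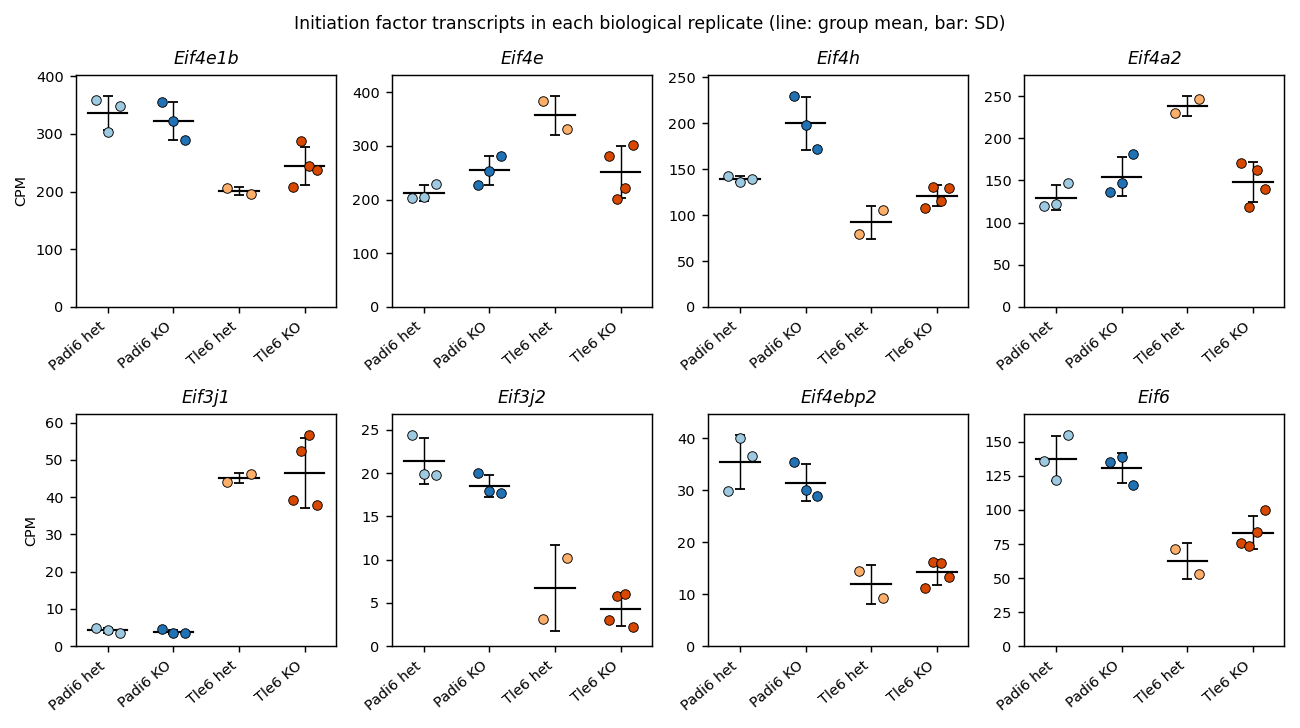
CPM of 8 initiation factor genes in each biological replicate (points), with the group mean (line) and SD (bar), for Padi6 het (n = 3), Padi6 KO (n = 3), Tle6 het (n = 2) and Tle6 KO (n = 4). Eif4h is higher in all Padi6 KO than in all Padi6 het replicates, and Eif3j1, Eif3j2, Eif4ebp2 and Eif6 separate the Padi6 from the Tle6 line in both genotypes.

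Loss of PADI6 was accompanied by a higher level of 1 initiation factor transcript, Eif4h, with 51 of the 52 tested members not passing the threshold of adjusted p under 0.05. Over all genes, 440 of 18228 passed it, which is 2.41% (1.69% higher and 0.724% lower in KO). Eif4h (ENSMUSG00000040731, chromosome 5), whose product stimulates the eIF4A helicase, was at 143, 136 and 139 CPM in Padi6 het and 230, 198 and 172 CPM in Padi6 KO oocytes. Every KO replicate lay above every het replicate, and the KO replicates were more spread out. The log2 change was 0.54 ± 0.11, a 1.45-fold higher level (adjusted p = 0.0328). The call depended on all 6 replicates, since the adjusted p lay between 0.0502 and 0.137 when any single replicate was left out, with log2 changes from 0.45 to 0.62. In the Tle6 line Eif4h was at 79.7 and 105 CPM in het and 108, 131, 115 and 130 CPM in KO oocytes, without overlap while libraries A and B were pooled. Library A of het replicate 2, at 127 CPM against 89.7 CPM in library B, lay within the KO range. The Tle6 KO change of Eif4h was 0.43 ± 0.19 (adjusted p = 0.266), and 0.24 without library B of het replicate 2. The difference between the lines' changes was -0.15 ± 0.21 (adjusted p = 0.725), so the change was not shown to be particular to loss of PADI6.

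Changes of the remaining members in Padi6 KO oocytes were small. Of the 52 log2 changes, 48 were under 0.5 in size, the median size was 0.12, against 0.22 for all genes tested, and the median SE was 0.117. Without adjustment, 9 members (17.3%) had a p under 0.05, against 18.6% of all genes. Besides Eif4h these were Eif5a2 at 0.77 ± 0.20 (adjusted p = 0.0820), Eif4ebp1 at 0.88 ± 0.35 (adjusted p = 0.211) and Eif4e at the value above, all positive. Eif4g1 at -0.61 ± 0.18 (adjusted p = 0.113), Eif1ad, Eif4e2, Eif4a3 and Eif5, the last 4 between -0.34 and -0.25, were negative. DESeq2 called Eif4g1 and Eif5a2 together with Eif4h, and 1322 genes in all, against 440 in edgeR.

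By role, Eif4h was the single called gene of the Padi6 line. The 14 tested eIF3 genes had log2 changes between -0.27 (Eif3b) and 0.12 (Eif3h), 6 of them positive and 8 negative. The 5 eIF2B genes lay between -0.21 (Eif2b2) and 0.02 (Eif2b1), and the genes for tRNA delivery, Eif2s1, Eif2s2, Eif2s3x, Eif2a and Eif2d, between -0.12 and 0.16. The eIF2 alpha kinases ran from -0.20 (Eif2ak1) to 0.38 (Eif2ak3). All 3 eIF4G genes were negative, between -0.61 (Eif4g1) and -0.04, and their summed level was 602 to 641 CPM in het and 535 to 600 CPM in KO replicates, without overlap. The summed eIF5, eIF5A, eIF5B and eIF6 genes were at 768 to 811 CPM in het and 679 to 745 CPM in KO replicates, also without overlap, with 2 of the 5 genes positive and 3 negative. The sums of all other roles overlapped between het and KO replicates, and no role sum was tested for a difference. How often sums of other genes separate in this way was not examined. The members together held 7790 ± 359 CPM in het and 7510 ± 458 CPM in KO oocytes (SD, n = 3 each).

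**Figure D3:**
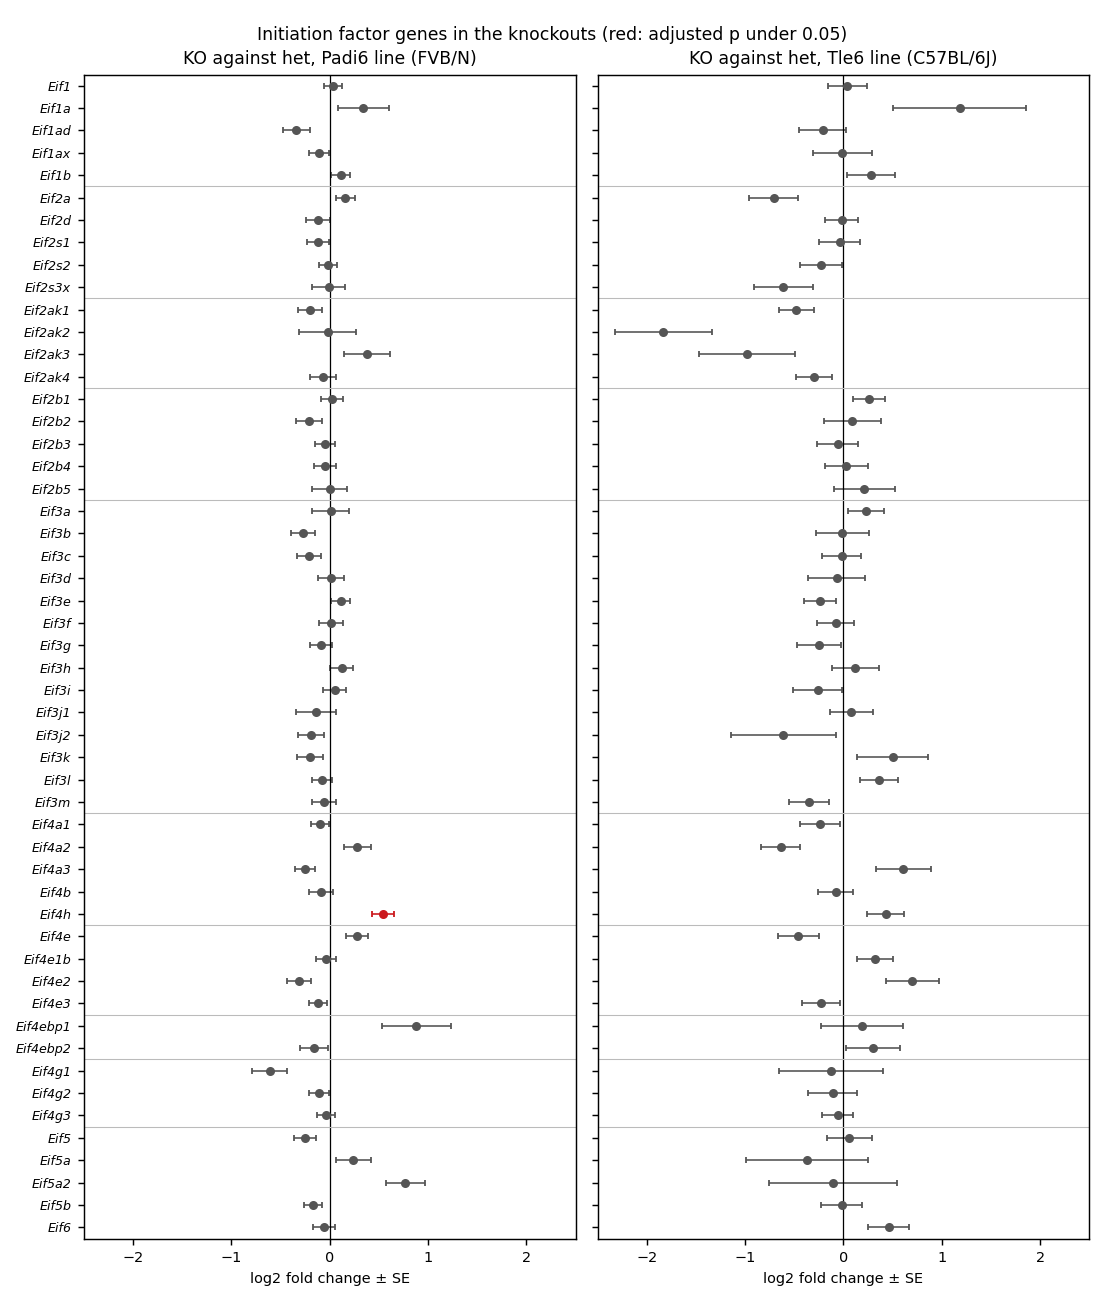
Log2 fold change with its SE for each of the 52 tested initiation factor genes, KO against het, in the Padi6 line (left) and the Tle6 line (right), grouped by role with grey lines between roles. Eif4h in the Padi6 line, in red, is the only point with an adjusted p under 0.05, and error bars are wider in the Tle6 line (median SE 0.219 against 0.117).

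Loss of TLE6 was accompanied by no called change among the 52 tested members in edgeR. Over all genes, 329 of 20276 passed the threshold, which is 1.62% (0.587% higher and 1.04% lower in KO). Without adjustment, 5 members (9.62%) had a p under 0.05, against 19.0% of all genes. DESeq2 called 1 member, Eif2ak2, limma-voom 0, and a fit whose spread was shared by both lines called 4, which were Eif2a, Eif2ak1, Eif2ak2 and Eif4a2. Over all genes these settings called 1732, 354 and 2061 genes, in the same order, against 329 in edgeR. The het group has only 2 replicates, the SEs were larger than in the Padi6 line, and 42 of 52 log2 changes were under 0.5 in size. With library B of het replicate 2 left out, 0 members and 0.605% of all genes were called.

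The 4 genes for eIF2 alpha kinases all had negative log2 changes in Tle6 KO oocytes, although none passed the threshold. Eif2ak2 was at 0.596 and 0.981 CPM in Tle6 het and 0.226, 0.179, 0.301 and 0.155 CPM in Tle6 KO, resting on 10 to 22 reads in each KO replicate. All KO replicates lay below both het replicates, and the log2 change was -1.83 ± 0.49 (adjusted p = 0.101). Eif2ak1 was at 68.8 and 66.5 CPM in Tle6 het and 47.6, 50.6, 39.6 and 50.5 CPM in Tle6 KO, again without overlap, with a log2 change of -0.48 ± 0.18 (adjusted p = 0.195). Eif2ak4 had a change of -0.30 ± 0.18. Eif2ak3 had one of -0.98 ± 0.49, with KO replicates at 8.06, 13.0, 12.2 and 6.99 CPM. Its het replicate 1, at 33.4 CPM, lay above them, but het replicate 2, at 7.58 CPM, lay within their range. In Padi6 KO oocytes the same genes showed no shared direction, and none of the 4 differences between the lines' changes passed the threshold (adjusted p from 0.0621 for Eif2ak2 to 0.536 for Eif2ak4). Without library B of Tle6 het replicate 2 the changes of the 4 genes in Tle6 KO oocytes were still negative, between -1.69 (Eif2ak2) and -0.55 (Eif2ak4).

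The tRNA delivery genes also had negative changes in Tle6 KO oocytes, all 5 of those tested, between -0.71 (Eif2a) and -0.02 (Eif2d). Eif2a was at 41.1 and 65.3 CPM in Tle6 het and 38.7, 28.4, 28.1 and 31.5 CPM in Tle6 KO, with every KO replicate below every het replicate (adjusted p = 0.171), and its change was -0.38 without library B of het replicate 2. Eif4e2 had a positive change of 0.70 ± 0.27 (adjusted p = 0.210), from 14.7 and 16.9 CPM in het to 17.4, 33.4, 25.6 and 23.8 CPM in KO. Library A of het replicate 2, at 26.7 CPM, lay within the KO range, and the change of Eif4e2 was 0.29 without library B. The eIF2B genes lay between -0.06 (Eif2b3) and 0.26 (Eif2b1), the eIF3 genes between -0.61 (Eif3j2) and 0.50 (Eif3k), and the eIF4G genes between -0.13 (Eif4g1) and -0.06 (Eif4g3). Role sums also separated het from KO replicates in the Tle6 line. The summed eIF2B genes were at 1430 to 1450 CPM in het and 1560 to 1650 CPM in KO. The eIF4E genes were at 974 to 991 and 825 to 884 CPM, and the eIF2 alpha kinases at 246 to 247 and 165 to 196 CPM. All other role sums overlapped, and none was tested. The members together held 8660 ± 369 CPM in het (SD, n = 2) and 8490 ± 563 CPM in KO (SD, n = 4).

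Several members varied more among replicates of 1 genotype than between genotypes in the Tle6 line. They were chosen after their values were seen. Eif5a was at 297 and 80.7 CPM in Tle6 het and 201, 59.8, 74.0 and 230 CPM in Tle6 KO, and Eif4g1 at 48.5 and 17.8 CPM in het and 39.1, 16.4, 15.5 and 46.1 CPM in KO. Both genes were thus low in het replicate 2 and KO replicates 2 and 3, and high in the remaining replicates. Eif3k was at 352 and 353 CPM in het and 295, 613, 715 and 320 CPM in KO, high in the same KO replicates, and the A and B libraries of het replicate 2 were at 590 and 184 CPM. Among the 51 members at 1 CPM or more, 8 had a range of 2-fold or more within Tle6 KO (n = 4). There were 5 in Tle6 het (n = 2), 2 in Padi6 het and 0 in Padi6 KO (n = 3 each). A range tends to widen with more replicates, so these counts do not compare groups of unlike size. The share over all genes was not taken. The Tle6 KO members were Eif1a, Eif3d, Eif3j2, Eif3k, Eif4a3, Eif4g1, Eif5a and Eif5a2. Eif2b1, with 1130 to 1190 CPM in the same 4 KO replicates, showed no such spread.

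**Figure D4:**
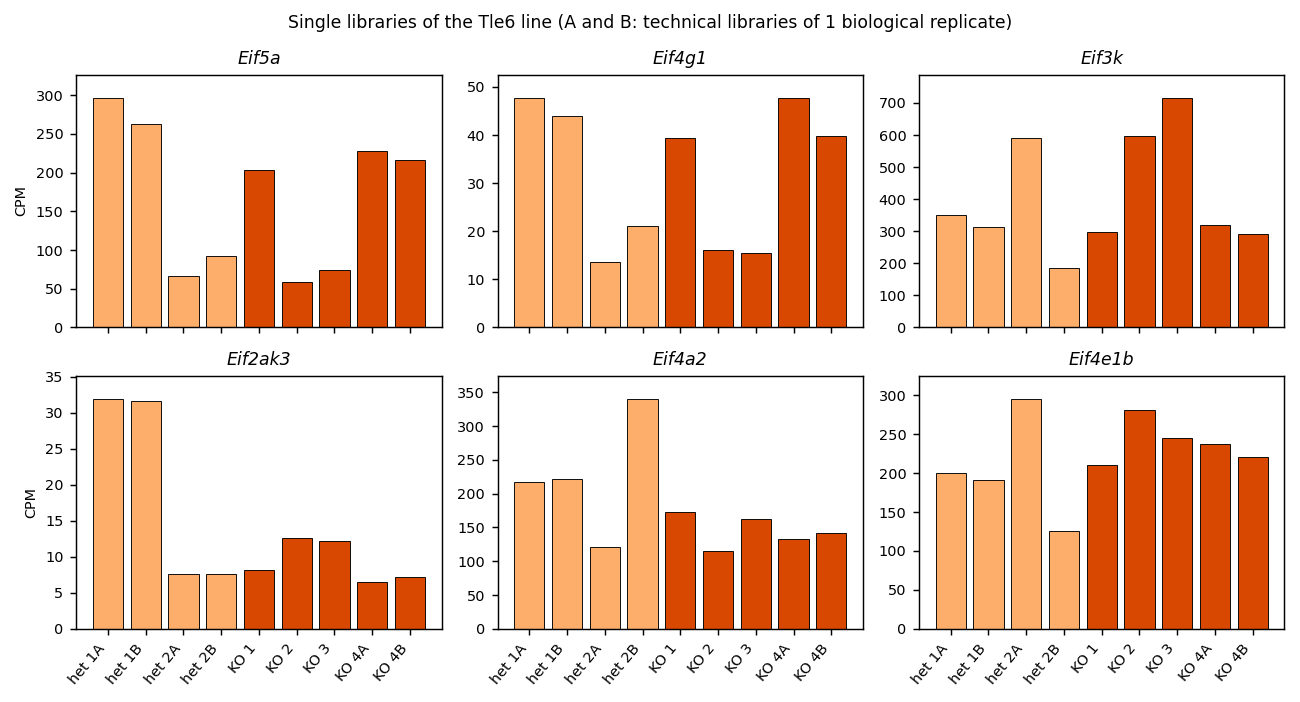
CPM of 6 initiation factor genes in each of the 9 libraries of the Tle6 line, with het libraries in light and KO libraries in dark orange. Libraries A and B of het replicate 1 and of KO replicate 4 are close, whereas those of het replicate 2 differ for Eif3k (590 and 184 CPM), Eif4a2 (121 and 340 CPM) and Eif4e1b (295 and 125 CPM).

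The change in KO oocytes differed between the lines for 1 member, Eif4a2 (ENSMUSG00000022884, chromosome 16), which encodes a helicase subunit of the cap-binding complex. Over all genes, 924 of 21392 passed the threshold for this difference, which is 4.32% (1.31% higher and 3.01% lower). Eif4a2 was at 120, 122 and 147 CPM in Padi6 het and 136, 147 and 181 CPM in Padi6 KO, groups that overlap. It was at 230 and 247 CPM in Tle6 het and 171, 118, 162 and 140 CPM in Tle6 KO, where all KO replicates lay below the het replicates. Padi6 KO oocytes had a log2 change of 0.28 ± 0.14 (adjusted p = 0.308) and Tle6 KO oocytes one of -0.64 ± 0.20 (adjusted p = 0.140), and their difference was -0.97 ± 0.25 (adjusted p = 0.0425). Technical library B of Tle6 het replicate 2 held 340 CPM and library A 121 CPM, within the KO range, and without library B the difference was -0.51 (adjusted p = 0.533), with 0 members and 1.79% of all genes called. Leaving out 1 replicate at a time gave differences between -1.06 and -0.82 with adjusted p from 0.0227 to 0.120, and the call was kept only without Padi6 KO replicate 1 or Tle6 KO replicate 1. Over 22 alternative settings the call was kept in 9.

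Between the lines, many initiation factor transcripts differed in het oocytes. In Tle6 het on C57BL/6J against Padi6 het on FVB/N, 10 of the 52 tested members were higher and 11 lower, 40.4% in all. Over all genes 6107 of 21392 passed the threshold, which is 28.5% (15.9% higher and 12.7% lower). The median size of the log2 differences was smaller for the members, 0.53, than for all genes tested, 0.64. No background of genes at matched levels was built for these shares. Line, strain background, mutant allele and any processing batch change together here and cannot be told apart. The split depended on scaling. Scaling by total count shifted the median log2 change of all genes by -0.31 against the TMM scaling used, and 3 members were then called higher and 16 lower. Of the 21 calls, 14 were kept under total count scaling.

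Because 1 technical library weighed on the het comparison, it was repeated in KO oocytes, a comparison added after the het result was seen. The KO groups share no libraries with the het groups, but the fit took its spread from all 12 replicates. The median size of the KO differences was 0.39 for the members and 0.58 for all genes tested. In Tle6 KO against Padi6 KO, 10 members were higher and 15 lower, 48.1%, against 32.5% of all genes (15.7% higher and 16.8% lower). These 25 calls became 22 without library B of Tle6 het replicate 2 and 19 without its library A. The 6950 genes called became 6499 and 6121. Of the 52 members, 43 had the same direction in both comparisons. There were 16 members called in both, each time in the same direction, which is 76.2% of those called in het and 64.0% of those called in KO oocytes. For all genes, 56.1% of those called in het were also called in the same direction in KO oocytes. Without library B of Tle6 het replicate 2, 10 members were called in the het comparison, among them 9 of the 21. This is 19.2% of the members, against 17.5% of all genes, so the members' share was then near the background. The 12 calls lost were Eif2a, Eif2b1, Eif2b5, Eif2d, Eif2s2, Eif3a, Eif3c, Eif3h, Eif4a2, Eif4e1b, Eif4e3 and Eif4h.

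The largest line difference was in Eif3j1, which with its near copy Eif3j2 encodes the loosely bound eIF3 subunit that helps the complex join the small ribosomal subunit. Eif3j1 (ENSMUSG00000027236, chromosome 2) was at 5.0, 4.29 and 3.68 CPM in Padi6 het, 4.52, 3.47 and 3.66 in Padi6 KO, 44.2 and 46.2 in Tle6 het and 39.3, 52.3, 56.7 and 37.9 CPM in Tle6 KO. Eif3j2 (ENSMUSG00000043424, chromosome 18) was at 24.4, 19.9 and 19.8 CPM in Padi6 het, 20, 17.9 and 17.7 in Padi6 KO, 3.19 and 10.2 in Tle6 het and 3.06, 5.85, 5.99 and 2.26 CPM in Tle6 KO. Eif3j1 was thus higher, and Eif3j2 lower, in every replicate of the Tle6 line than in any of the Padi6 line. In het oocytes the log2 difference was 3.41 ± 0.22 for Eif3j1 (10.6-fold, adjusted p = 2.88e-07) and -1.64 ± 0.46 for Eif3j2 (adjusted p = 0.0182), and in KO oocytes 3.58 ± 0.21 (adjusted p = 4.82e-08) and -2.11 ± 0.37 (adjusted p = 7.64e-04). The het value of Eif3j2 ranged from -2.83 to -1.02 over the alternative settings, and its call was lost without library A of Tle6 het replicate 2 (-1.10, adjusted p = 0.135) and without Tle6 het replicate 1 (-1.02).

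These 2 counts are uncertain, because the genes are near copies. All 783 coding bases of Eif3j1 occur in Eif3j2, 94.9% of the 31-base stretches of Eif3j2 transcripts and 53.6% of those of Eif3j1 occur in other genes as well, and reads with several alignments were set apart. Reads of both lines were aligned to a C57BL/6J reference, and the part of this in the difference was not tested. Summed over both genes, the count was 23.5 to 29.4 CPM in Padi6 het, 21.4 to 24.5 in Padi6 KO, 47.4 to 56.4 in Tle6 het and 40.1 to 62.7 CPM in Tle6 KO replicates, so the sum also separated the lines.

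In the cap-binding group, the line difference ran against Eif4e1b and toward Eif4e in het oocytes. With the values given above, every Tle6 het replicate had less Eif4e1b and more Eif4e than any Padi6 het replicate with libraries A and B pooled, with log2 differences of -0.72 ± 0.16 (adjusted p = 0.00419) and 0.77 ± 0.18 (adjusted p = 0.00660). In KO oocytes Eif4e1b was also lower in the Tle6 line, at -0.40 ± 0.13 (adjusted p = 0.0284), while Eif4e was at -0.02 ± 0.15. The KO call of Eif4e1b was kept in 13 of 22 alternative settings, with differences from -0.58 to -0.34. That call was lost when either technical library of Tle6 het replicate 2 was left out. Without library B of Tle6 het replicate 2, the het difference was -0.42 for Eif4e1b (adjusted p = 0.146), and Eif4e was still called. Eif4e3 was higher in the Tle6 line in het (0.53 ± 0.15) and in KO oocytes (0.38 ± 0.13). Its het call was lost without library B (0.29, adjusted p = 0.230), and its KO call was kept in 10 of 22 alternative settings.

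The 4E-BP repressor Eif4ebp2, which holds eIF4E away from eIF4G, was lower in the Tle6 line. It was at 29.8, 40 and 36.6 CPM in Padi6 het, 35.5, 30.0 and 28.9 in Padi6 KO, 14.5 and 9.27 in Tle6 het and 11.3, 16.3, 16.1 and 13.3 CPM in Tle6 KO, without overlap between the lines. The log2 difference was -1.56 ± 0.23 in het (adjusted p = 3.42e-04) and -1.14 ± 0.18 in KO oocytes (adjusted p = 3.74e-04). Eif6 was at 136, 122 and 155 CPM in Padi6 het, 135, 139 and 118 in Padi6 KO, 71.6 and 53.3 in Tle6 het and 76.1, 73.7, 83.8 and 99.9 CPM in Tle6 KO, again without overlap, with differences of -1.12 ± 0.18 in het and -0.65 ± 0.14 in KO oocytes. Eif1ad was at 35.0, 27.7 and 27.3 CPM in Padi6 het, 27.1, 21.1 and 22.3 in Padi6 KO, 15.8 and 13.2 in Tle6 het and 9.89, 11.2, 11.9 and 15.7 CPM in Tle6 KO, with differences of -1.03 ± 0.22 and -0.95 ± 0.18. Of the 31-base stretches of Eif1ad transcripts, 14.0% also lie in its neighbour Banf1 on the opposite strand, and the sources used here do not give the strand setting of the counting.

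**Figure D5:**
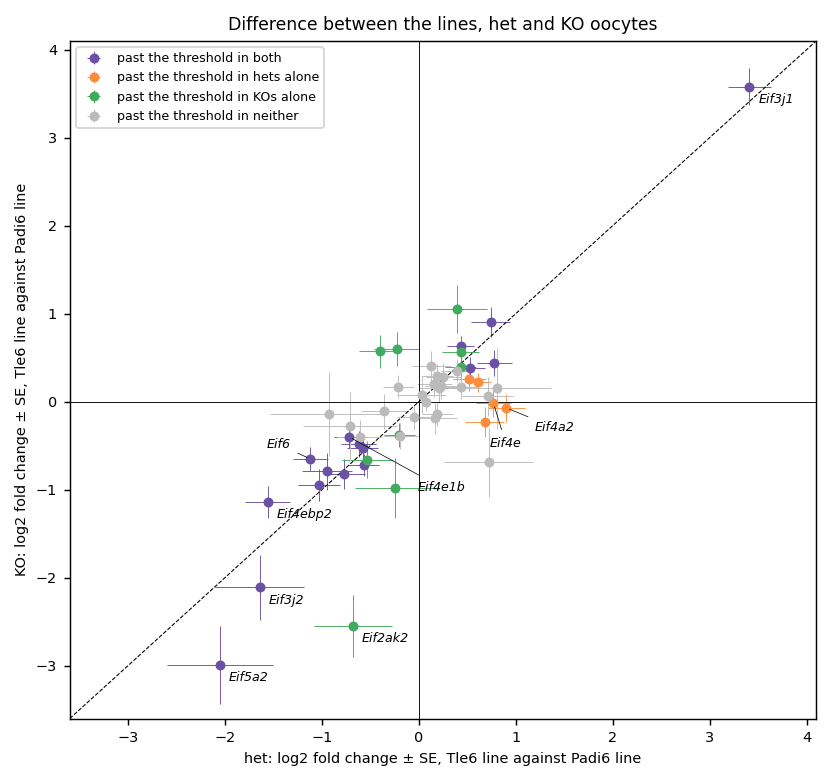
Log2 fold change with SE between the Tle6 line (C57BL/6J) and the Padi6 line (FVB/N) in het oocytes (horizontal) and in KO oocytes (vertical) for the 52 tested members, with the dashed line marking equal differences. The 16 members called in both lie in the same quadrants, with Eif3j1 far above and Eif5a2, Eif3j2 and Eif4ebp2 far below 0, while Eif4e, Eif4a2 and Eif2a are called in het oocytes and lie near or below 0 in KO oocytes.

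Among eIF3 genes, 4 were higher and 3 lower in Tle6 het than in Padi6 het oocytes. Eif3a, the largest scaffold subunit, was at 15.1, 25.4 and 18 CPM in Padi6 het, 17.9, 21 and 19.2 in Padi6 KO, 31.8 and 32.2 in Tle6 het and 35.4, 37.3, 39.0 and 33.7 CPM in Tle6 KO, higher in every replicate of the Tle6 line. Eif3m was at 167, 129 and 153 CPM in Padi6 het, 158, 129 and 137 in Padi6 KO, 207 and 298 in Tle6 het and 178, 211, 204 and 177 CPM in Tle6 KO, and Eif3e at 129, 108 and 123, then 128, 126 and 130, then 176 and 186, then 155, 140, 149 and 152 CPM in the same order. These 2 peripheral subunits were also higher in every replicate of the Tle6 line. The log2 differences in het oocytes were 0.74 ± 0.20 for Eif3a, 0.78 ± 0.18 for Eif3m and 0.61 ± 0.13 for Eif3e, and in KO oocytes Eif3a (0.91 ± 0.17) and Eif3m (0.44 ± 0.15) were called and Eif3e (0.22 ± 0.11) was not. The KO call of Eif3m was kept in 13 of 22 alternative settings. Eif3c and Eif3h were lower in the Tle6 line in both comparisons, at -0.62 and -0.77 in het and -0.48 and -0.82 in KO oocytes. Without library B of Tle6 het replicate 2, Eif3a (0.60), Eif3c (-0.43) and Eif3h (-0.48) were no longer called in het oocytes, which left 3 eIF3 genes higher and 1 lower.

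The remaining called members of the het comparison were Eif2b1, Eif2s2, Eif2a and Eif4a2, higher in the Tle6 line, and Eif2b5, Eif2d, Eif4h and Eif5a2, lower. Of these 8, Eif5a2 alone was still called without library B of Tle6 het replicate 2. Eif5a2 had the most negative difference of the members, at -2.05 ± 0.55 in het and -2.99 ± 0.44 in KO oocytes, from 3.90 to 8.80 CPM in the Padi6 line to 0.328 to 1.62 CPM in the Tle6 line. Eif2b1 (0.43 in het, 0.63 in KO), Eif2b5 (-0.95, -0.79), Eif2d (-0.58, -0.53) and Eif4h (-0.57, -0.72) were called in both comparisons. Eif2s2 (0.52, 0.26), Eif2a (0.68, -0.23) and Eif4a2 (0.90, -0.07) were called in het oocytes alone. Members called in KO oocytes alone included Eif2ak2 at -2.55 ± 0.35 (adjusted p = 1.11e-04), with -0.68 ± 0.40 in het oocytes, and Eif3k at 1.05 ± 0.27. Whether the het and KO differences of a member were unequal is the same contrast as the difference between the lines' KO changes, which Eif4a2 alone among the members passed.

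Other genes of the translation pathway, listed by function, were read in the same fits. Of 18 cap and poly(A) partners, 12 tested genes of alternative initiation and scanning, 13 of mTORC1 and MNK signalling and 13 of elongation and termination, none was called in either KO comparison. Over all genes, 2.41% were called in the Padi6 line, 1.62% in the Tle6 line and 4.32% for the difference between the lines' changes. Of 9 tested genes of the integrated stress response, which acts through eIF2 alpha phosphorylation, 1 was called, Atf4, its translationally controlled transcription factor. Atf4 was at 242 ± 37.0 CPM in Padi6 het and 150 ± 9.55 CPM in Padi6 KO (SD, n = 3 each), a log2 change of -0.68 ± 0.12 (adjusted p = 0.0239), and at 101 ± 23.2 in Tle6 het (n = 2) and 146 ± 28 CPM in Tle6 KO (n = 4). The change differed between the lines for Atf4 (1.19 ± 0.26, adjusted p = 0.0239), for the G-quadruplex helicase gene Dhx36 (-1.15 ± 0.29, adjusted p = 0.0426) and for the mTOR inhibitor gene Deptor (-0.77 ± 0.18, adjusted p = 0.0330). With library B of Tle6 het replicate 2 left out, these differences were 0.89, -0.82 and -0.71, and none of the 3 was called (adjusted p = 0.108, 0.387 and 0.0919).

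Between the lines, 28.5% of all genes passed the threshold in het oocytes (15.9% higher and 12.7% lower in the Tle6 line). Of the 18 cap and poly(A) partners, 6 were higher and 5 lower in Tle6 het oocytes. The 3 of smallest p were Lsm14b (2.21 ± 0.26), which encodes an mRNA-binding protein of stored transcripts, Eif4enif1 (1.05 ± 0.18), which encodes the eIF4E transporter, and Cpeb1 (1.33 ± 0.24), which encodes a regulator of cytoplasmic polyadenylation. They were also higher in Tle6 KO oocytes, at 1.64 ± 0.23, 0.51 ± 0.16 and 0.79 ± 0.21. Of the alternative initiation genes 4 were higher and 0 lower, led by Pdcd4 (1.04 ± 0.20), an inhibitor of eIF4A, and Ddx3x (0.86 ± 0.17), a scanning helicase. Of the signalling genes 3 were higher and 3 lower, led by Rheb (1.15 ± 0.17), Deptor (0.70 ± 0.14) and Tsc1 (-0.99 ± 0.21). The stress response list held Dnajc3 (1.79 ± 0.22) and Atf4 (-1.23 ± 0.21), and the elongation list 2 higher and 3 lower genes, led by Eef2 (-1.25 ± 0.18), Eef1g (-1.61 ± 0.24) and Gspt1 (0.51 ± 0.14). When library B of Tle6 het replicate 2 was left out, the called genes were 2 higher and 4 lower for cap and poly(A) partners, 1 and 0 for alternative initiation, 2 and 3 for signalling, 1 and 1 for the stress response and 1 and 2 for elongation. Over all genes, 17.5% were called without library B. Of the genes named, Eif4enif1 (0.60), Cpeb1 (0.87) and Ddx3x (0.42) lost their het calls.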

How the data were processed

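Polyadenylated RNA of 15 GV oocytes per library was made into libraries, per the labels' protocols, with a QIAseq FX Single Cell RNA kit. The authors deposited, for each of 15 libraries, a table of raw read counts by gene, in whole numbers. The submitters' processing notes name bcl2fastq 2.20.0.422, cutadapt 2.8, STAR 2.7.8a, HTSeq 2.0.2 and mm39. The sources used here give neither the annotation release nor the strand setting, so genes that overlap or lie antisense to others have uncertain counts. Samples were grouped by title and genotype, although bracketed names in some titles read WT for heterozygotes.

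Per library, 5.39 to 7.29% of reads lay outside genes, 3.85 to 4.2% were ambiguous between genes and 12.09 to 14.51% aligned more than once. These and 92 spike-ins stayed out of library sizes and tests. Symbols came from GENCODE M21 (GRCm38), which matched 52147 of 53700 identifiers. It also gave transcript lengths and the coding sequences printed. No coordinates are given, since the builds differ. Technical libraries A and B were added.

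After filterByExpr and TMM scaling, edgeR 4.0.16 in R 4.3.3 gave two-sided quasi-likelihood tests (glmQLFTest on a robust glmQLFit). Their p-values were adjusted by Benjamini-Hochberg over all genes tested and called under 0.05. KO against het was fitted within each line. The difference between the lines' changes and the line comparisons used all 12 replicates in 1 fit. An SE is the log2 change divided by the root of the F statistic. CPM use TMM factors over all 12 replicates, and single libraries over 15. The scripts were tested on simulated data. Alternatives were other scalings, filters, DESeq2 1.42.0, limma-voom (limma 3.58.1), a shared spread, a replicate block and leaving out libraries. The repeat of the line comparison in KO oocytes, the union of exons as length, and the pathway lists and the Eif4e1b to Eif4e ratio without library B were added after seeing the data.

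The members and lists were chosen with earlier results of these data known. Every member is named. Values in each replicate are given for Eif4e1b, Eif4e, the 5 members of highest level per length and the called members (the 10 of smallest p in each of the 4 planned comparisons). From each list, up to 3 called genes by smallest p per planned comparison are named. Eif3j2, the kinase genes, Eif2a, Eif4e2, Eif5a and Eif4g1 were added after their values were seen.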

Additional observations from a re-analysis of the deposited data

Results flagged for a closer look

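In Eif3f, an eIF3 subunit gene, Tle6 KO replicate 3 stood apart from the 3 other Tle6 KO replicates, at 85.5 CPM against 65.7 to 67.9 CPM. Of 51 members tested in this way in the Tle6 KO group, this was the only 1 with a replicate so far from the rest, and chance alone marks about 1 in 20 groups of 4. Eif3f was called in none of the comparisons, and the Tle6 het replicates were at 71.3 and 83.7 CPM.

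The change of Eif4a2 in KO oocytes differed between the Tle6 and the Padi6 line by -0.97 ± 0.25 on the log2 scale (adjusted p = 0.0425, edgeR's quasi-likelihood test). It was positive in the Padi6 line and negative in the Tle6 line, and the call was kept in 9 of 22 alternative settings, with differences between -1.26 and -0.51.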

How the results depend on the processing

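Counts of called members were small and moved with the setting in the KO comparisons. For Padi6 KO against het, the 1 called member became 3 with no filter or with DESeq2, 0 with a spread shared by both lines and 0 without any single replicate, and the 440 called genes became 1625, 1322, 60 and 61 to 258. For Tle6 KO against het, the 0 called members became 1 with DESeq2 and 4 with a shared spread, and the 329 called genes became 1447 with no filter, 1732 with DESeq2, 2061 with a shared spread, 120 without library B of Tle6 het replicate 2 and 119 to 292 without a single replicate. For the difference between the lines' changes, the 1 called member became 5 with no filter or DESeq2, 0 without library B, 3 without library A of Tle6 het replicate 2 and 0 to 5 without a single replicate. The 924 called genes became 2078 with no filter, 567 at a mean of at least 5 CPM, 2051 with DESeq2, 382 without library B and 406 to 1465 without a single replicate. Under total count scaling Eif4a2 was not called (-0.75, adjusted p = 0.0759) and Eif4e2 was. For Tle6 het against Padi6 het, 21 called members became 10 without library B and 13 to 22 without a single replicate, lowest without Tle6 het replicate 2, and 6107 called genes became 4047 at a mean of at least 5 CPM, 3724 without library B and 3953 to 6283 without a single replicate. For Tle6 KO against Padi6 KO, 25 members became 15 to 25 without a single replicate, lowest without Padi6 KO replicate 1 or 2 or Tle6 KO replicate 3, and 6950 genes became 3889 at a mean of at least 5 CPM. In every case the cause was not tested beyond the change itself.

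Total count scaling moved the share of called genes that were higher from 36.2 to 52.3% in Tle6 KO against het, from 30.3 to 51.5% in the difference between the lines' changes and from 55.5 to 31.4% in Tle6 het against Padi6 het. It shifted the median of all genes by 0.16, 0.22 and -0.31 on the log2 scale. The titles give het and KO replicates a shared number and do not state whether they were paired. Deviations of same-numbered replicates had correlations of 0.045 to 0.445 for Padi6, and of 0.17 and 0.286 for Tle6. Replicates of unlike number had correlations of -0.456 to 0.311 for Padi6 and -0.414 to 0.414 for Tle6. Padi6 het replicate 2 correlated better with KO replicate 3 than with KO replicate 2. Pairing was thus not settled. A replicate block gave 859 called genes and 2 called members in Padi6 KO against het. With the replicate block, 57 genes and 0 members were called in Tle6 KO against het, 400 genes and 0 members in the difference, 5306 genes and 20 members in Tle6 het against Padi6 het, and 4058 genes and 14 members in Tle6 KO against Padi6 KO. In the comparisons between lines, the block fit took the difference at replicate 1 of each line. Its values there do not test the line difference over all replicates. Eif1ax was not called in Tle6 het against Padi6 het (0.03 ± 0.25). With the replicate block it was called lower (-0.53, adjusted p = 0.0380), the only reversal among the members. Eif1ax was at 121 CPM in Tle6 het replicate 1 and 177 CPM in Padi6 het replicate 1, but at 213 and 161 CPM in replicate 2. Where leaving out a replicate left 1 sample in the Tle6 het group, its spread was taken from the other groups. Levels per kb depend on the annotated transcript, as shown for Eif4g2.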
